A study of Mus musculus with 141 samples.

Results

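The HoxA cluster of the mouse genome, a window on chromosome 6 (build mm10) that holds the Hoxa genes with a few kb either side, was described from single-cell DNA methylation calls. Its members are all cytosine positions that the methylation table lists in that window, 1104 of the table's 1416034 positions. They were chosen by position alone. Merging adjacent positions as the strands of 1 CpG left 1019 CpGs, 85 of them with both strands. Of these, 459 had calls from 5 or more cells in AG-881 and in DMSO and carry the levels given here, printed upstream sequences apart. The other 560 fell outside that filter: 839 of the 1019 were called in both arms, 101 only with AG-881, 75 only with DMSO, and 4 had no call once ties were left out. RefSeq places 11 protein-coding Hoxa genes in the cluster, with Hoxa13 at its upper end.

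The study grew mouse glioma cells that carry an R132H mutation of IDH (isocitrate dehydrogenase) for more than 2 weeks, either with AG-881 at 1 µM or with the vehicle DMSO. AG-881, also called vorasidenib, inhibits mutant IDH. Every cell of both arms carries the mutation, so the vehicle arm is mutant and no wild-type cells were compared. Live cells were sorted singly (calcein AM positive, TO-PRO-3 negative) and profiled by reduced representation bisulfite sequencing, in which the enzyme MspI cuts at CCGG and so enriches CpG-dense DNA, jointly with Smart-seq2 transcriptomes that were not analysed here. There were 67 AG-881 cells in library pools 1 to 4 and 74 DMSO cells in library pools 5 to 8. The labels name no separate culture within an arm, so each arm was taken as 1 sample. No test between arms was possible, and arm cannot be told apart from library pool.

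Hox genes encode homeodomain transcription factors that give cells their position along the body axis. They lie in clusters whose order matches the order of their expression along that axis, with Hoxa2 and Hoxa3 acting towards the head and Hoxa9 to Hoxa13 towards the tail and the ends of the limbs. In tissues where a cluster is silent it is commonly held by Polycomb proteins, and its CpG-rich stretches are then largely free of DNA methylation; in some tumours parts of the cluster gain methylation. Mutant IDH makes 2-hydroxyglutarate, which blocks TET enzymes, the oxidases of methylated cytosine.

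Nearly all cells had calls in the cluster. A call was found in 66 of the 67 AG-881 cells and in all 74 DMSO cells, at a median of 70 CpGs per AG-881 cell (range 0 to 214) and 48.5 per DMSO cell (range 2 to 208). Over the genome the median was 89440 CpGs per AG-881 cell and 67749 per DMSO cell, so both depths were higher with AG-881. Within the cluster, 5039 AG-881 calls and 4556 DMSO calls fell on the 459 CpGs. Cells differ in which CpGs they cover, and the part of depth in the differences between arms was not tested. Intervals given with levels are exact Clopper-Pearson intervals at 95%, cover counting error only and treat calls as independent, which calls of 1 cell are not.

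The upstream sequences of 3 Hoxa genes show what the levels refer to: a CpG-dense upstream region partly methylated, one with no methylated call, and one largely methylated. All 3 genes lie on the minus strand. Each run gives the 250 bases before the start site, 5′ to 3′, from the RefSeq promoter table (GRCm38.p6, the sequence of mm10), and capitals mark the CpGs that the methylation table lists. The Hoxa6 and Hoxa13 runs held at least 50 calls per arm. The Hoxa5 run held fewer and was added after its values were seen, as the methylated contrast.
Hoxa6, chr6:52208673-52208922: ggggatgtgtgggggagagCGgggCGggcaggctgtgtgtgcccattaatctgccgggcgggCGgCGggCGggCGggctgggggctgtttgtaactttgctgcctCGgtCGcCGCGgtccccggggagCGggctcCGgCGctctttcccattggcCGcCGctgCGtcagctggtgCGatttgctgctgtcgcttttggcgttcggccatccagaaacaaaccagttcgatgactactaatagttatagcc
Hoxa13, chr6:52260881-52261130: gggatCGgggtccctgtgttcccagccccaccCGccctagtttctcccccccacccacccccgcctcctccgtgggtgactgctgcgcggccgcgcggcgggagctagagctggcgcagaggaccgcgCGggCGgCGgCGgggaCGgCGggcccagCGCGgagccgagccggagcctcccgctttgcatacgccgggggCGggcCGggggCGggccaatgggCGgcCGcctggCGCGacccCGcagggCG
Hoxa5, chr6:52204588-52204837: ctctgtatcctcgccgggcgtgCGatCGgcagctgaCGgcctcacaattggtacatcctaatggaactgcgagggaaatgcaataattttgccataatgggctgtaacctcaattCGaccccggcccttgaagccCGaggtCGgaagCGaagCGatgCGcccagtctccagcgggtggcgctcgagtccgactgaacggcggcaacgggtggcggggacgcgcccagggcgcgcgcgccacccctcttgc

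In the Hoxa6 run, 17 of 24 CpGs were listed, and 19.2% of 172 AG-881 calls (interval 13.6 to 25.9) and 7.87% of 127 DMSO calls (3.84 to 14.0) were methylated. The Hoxa13 run is 80% G and C and has 35 CpGs, 19 of them listed; 0 of 162 AG-881 calls and 0 of 124 DMSO calls were methylated, with exact upper bounds of 2.25% and 2.93%. The Hoxa5 run has 28 CpGs, 9 of them listed, of which 86.8% of 38 AG-881 calls (71.9 to 95.6) and 80% of 25 DMSO calls (59.3 to 93.2) were methylated. The Hoxa5 and Hoxa6 runs thus have close numbers of CpGs and levels far apart. The promoter table held 9 of the 11 Hoxa genes; Hoxa4 was not among them. Of the 78 listed positions inside its Hoxa sequences, 51 lie on the C and 24 on the G of a CpG, and 3 lie on neither.

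Over the whole cluster the arms did not differ beyond counting error. With AG-881, 938 of 5039 calls were methylated, 18.6% (17.5 to 19.7), and with DMSO 814 of 4556, 17.9% (16.8 to 19.01). The difference was 0.75 points (-0.82 to 2.31). Pools 1 to 4 of AG-881 stood at 15.7%, 20.1%, 19.6% and 18.97%, and pools 5 to 8 of DMSO at 20.9%, 17.1%, 18.04% and 15.6%. The pools of the arms overlapped, and the spread among pools of the same arm was wider than the gap between arms. Per cell with at least 20 calls, the mean was 18.3% ± 9.43 (SD over 62 AG-881 cells, range 0 to 44.7) and 18.9% ± 12.8 (SD over 64 DMSO cells, range 0 to 70.8). At all 396065 shared CpGs of the genome the levels were 25.4% and 26.8%.

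HoxA was the least methylated of the 4 Hox clusters. From the first to the last gene, its level was 18.8% with AG-881 and 18.05% with DMSO, against 40.5% and 45.6% in HoxB, 44.3% and 43.2% in HoxC and 59.4% and 60.1% in HoxD. The intervals of HoxA, 17.7 to 19.9 and 16.9 to 19.2, lay apart from those of the other clusters, whose lowest bound was 37.9%. Of the 452 shared CpGs between the first and last Hoxa gene, 206 (45.6%) had no methylated call in either arm, compared with 5.43% of 184 in HoxB, 7.24% of 221 in HoxC and 17.4% of 190 in HoxD. The clusters also differ in depth, with 4968 AG-881 calls in HoxA and 1377 to 2070 in the others, so a CpG of HoxA had more chances to show a methylated call. DNA on either side of HoxA was more methylated: 98.5% and 98.4% at 6 CpGs lying 10 kb to 100 kb below the cluster and 58.7% and 62.4% at 62 CpGs lying as far above it.

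**Figure D1:**
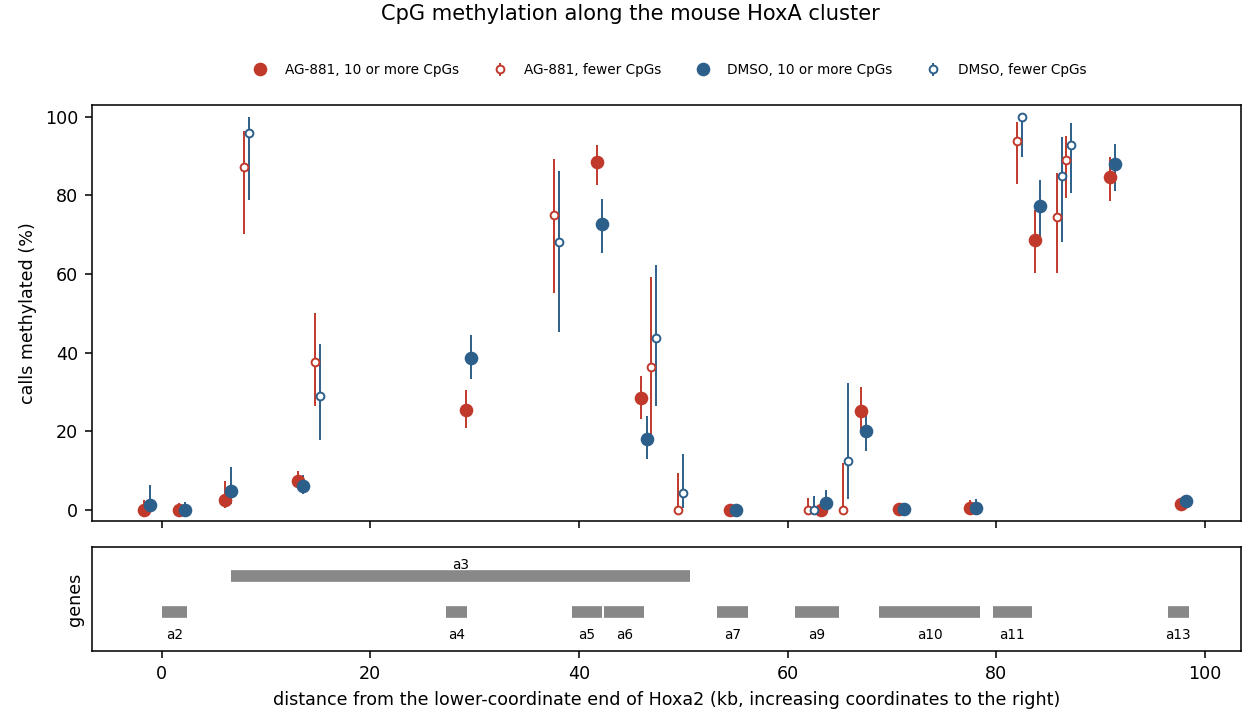
Percentage of calls methylated (y axis) in stretches of neighbouring CpGs along the HoxA cluster (x axis, kb from the lower-coordinate end of Hoxa2), with AG-881 in red and DMSO in blue; bars are exact 95% intervals of the calls, filled points have 10 or more CpGs, open points fewer CpGs and at least 20 calls per arm, and grey bars are RefSeq gene spans (a2 is Hoxa2). Low stretches at Hoxa2, from Hoxa7 to Hoxa10 and at Hoxa13 alternate with high ones at Hoxa5 and around Hoxa11, in both arms.

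Levels alternated sharply along the cluster, and the alternation was shared by both arms. Stretches were set by position only, as shared CpGs less than 500 bp apart. There were 34, of which 16 had at least 10 CpGs, together 399 of the 459. Of these 16, 10 were under 20% in both arms, 8 of them under 5%, 3 were over 60% in both arms, and 3 were neither. The plot of levels along the cluster shows these blocks. The largest step lay between Hoxa10 and Hoxa11. Over 3900 bases without a shared CpG, the level rose from 0.43% to 93.8% with AG-881 and from 0.48% to 100% with DMSO. Going on, it fell from 84.7% and 88.0% between Hoxa11 and Hoxa13 to 1.33% and 2.10% at Hoxa13, across 5671 bases.

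Hoxa2, which patterns the hindbrain and the pharyngeal arches, had no methylated call in a stretch inside the gene near its 5′ end. In the gene (chr6:52162417-52164831), 15 CpGs within 174 bp near the 5′ end had 0 of 221 AG-881 calls and 0 of 188 DMSO calls methylated. The exact upper bounds were 1.66% and 1.94%. The nearest of these CpGs lay 383 bp from the 5′ end. Of the 6 CpGs in the 250 bases upstream, 0 were listed, so the start site itself was not measured. Below Hoxa2, 10 CpGs in Hotairm1, a long noncoding RNA gene, had 0 of 152 and 1 of 85 calls methylated.

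Hoxa3, needed for the thymus and parathyroid glands, held both low and high CpGs. RefSeq gives it a span of chr6:52169059-52213067, which covers Hoxa4, Hoxa5 and Hoxa6, so each CpG was given to the shortest Hoxa gene that holds it. Left of the gene's lower-coordinate end, 12 CpGs in Hoxaas2 stood at 2.52% and 4.76%. Inside the gene, 4 CpGs from 52170472 to 52170575 stood at 87.1% of 31 AG-881 calls and 95.8% of 24 DMSO calls. Further in, 42 CpGs at chr6:52175474-52176021 stood at 7.24% of 525 AG-881 calls (5.17 to 9.80) and 6.15% of 423 DMSO calls (4.05 to 8.88). AG-881 pools 1 to 4 gave 7.83%, 8.15%, 6.25% and 6.70% at these 42 CpGs, while DMSO pools 5 to 8 gave 8.65%, 20.3%, 1.33% and 0%. The DMSO pools spread more widely and enclosed the AG-881 pools, but few cells set these values. Of cells with at least 5 calls here, 30 of 35 with AG-881 and 31 of 35 with DMSO had no methylated call. In pool 6, 1 cell with that many calls stood at 100% of 6 calls, another at 90.9% of 11, and the others at 0%. Near the upper end of the span, 3 CpGs had 0 of 38 and 2 of 48 calls methylated.

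Around the 5′ end of Hoxa4, which acts in the neck vertebrae, the level was lower in the AG-881 cells than in the DMSO cells. The stretch chr6:52191254-52192351 holds 32 CpGs that reach from inside the gene to upstream of it. None lies between 52191527 and 52191994, so the annotated 5′ end at 52191703 was itself not measured. Its AG-881 level was 25.4% of 335 calls in 39 cells (20.8 to 30.4) and its DMSO level 38.7% of 297 calls in 31 cells (33.1 to 44.5), a difference of -13.3 points (-20.7 to -5.85). AG-881 pools 1 to 4 gave 17.2%, 41.1%, 8.16% and 31.1%, and DMSO pools 5 to 8 gave 38.5%, 40%, 45.6% and 33.3%. Pools 1, 3 and 4 lay below every DMSO pool, but pool 2 lay above all but pool 7. Without pool 1 the difference was -8.67 points and without pool 2 it was -19.1 points. The 25 CpGs inside the gene stood at 32.2% and 45.5%, and the 7 upstream at 9.09% and 17.8%. Values of 0.5 after merging strands, which were left out as ties, made up 3.81% of the values here, against 0.77% in the cluster and 0.65% in the series. They can include CpGs whose strands disagreed in a cell. Counting ties as methylated to 50% left the difference within its interval.

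Hoxa5, which is needed for the airways and lung, was largely methylated around its 5′ end, with the higher level in the AG-881 cells. The stretch chr6:52203964-52204842 has 26 CpGs and fewer than 200 calls per arm. Its level was 88.4% of 173 AG-881 calls (82.7 to 92.8) and 72.7% of 172 DMSO calls (65.4 to 79.2), a difference of 15.8 points (7.10 to 24.3). Its pool values, given after they were seen, were 84.0%, 90.2%, 90.7% and 87.0% with AG-881 and 78.9%, 88.9%, 68.4% and 60.7% with DMSO. DMSO pool 6 lay among the AG-881 pools, and the other DMSO pools lay below them. Leaving out any 1 pool gave differences from 12.1 to 18.8 points. Few cells weighed heavily on the DMSO level. Of cells with at least 5 calls, 3 of 19 with DMSO were at 20% or below (0% of 10 calls, 14.3% of 7 and 0% of 6). With AG-881 it was 0 of 20. Another DMSO cell stood at 36.4% of 11 calls, and 12 of the 19 were at 80% or above. The lowest AG-881 cell stood at 33.3% of 6. Inside the gene 21 CpGs stood at 89.8% and 73.8%, and 5 shared CpGs upstream at 83.3% and 67.7%. The last shared CpG inside the gene was at 52204263, short of the annotated 5′ end at 52204587. In the printed Hoxa5 run, the bases next to the start site held no listed CpG. The start site itself was thus not measured. The printed Hoxa5 run has another set of CpGs, 9 listed ones, which stood at 86.8% and 80%.

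Hoxa6, a trunk-patterning gene next to Hoxa5, was partly methylated around its 5′ end, with the higher level in the AG-881 cells. The stretch chr6:52208352-52208942, which contains the Hoxa6 run printed above, has 22 CpGs. Inside the gene its last shared CpG was at 52208436, short of the annotated 5′ end at 52208672. AG-881 stood at 28.4% of 278 calls in 37 cells (23.2 to 34.1) and DMSO at 17.9% of 212 calls in 32 cells (13.01 to 23.8), a difference of 10.5 points (2.66 to 18.02). AG-881 pools 1 to 4 gave 19.05%, 26.5%, 41.7% and 29.8%, and DMSO pools 5 to 8 gave 19.7%, 15.4%, 26.7% and 13.4%. The pools overlapped, with pool 3 highest. Without pool 3 the difference was 7.73 points. The 5 CpGs inside the gene stood at 51.5% of 68 and 52.3% of 44 calls, a difference of -0.80 points whose interval was wide (-20.5 to 19.1). With CpGs called in at least 1 or at least 2 cells of each arm, the difference inside the gene was 7.28 and 6 points. The 17 CpGs upstream stood at 20.95% of 210 (15.7 to 27.1) and 8.93% of 168 (5.08 to 14.3). Ties made up 3.16% of the values in this stretch.

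Across the genome, few stretches moved as far. Of 4607 stretches that held 10 or more CpGs and, per arm, 200 or more calls from 20 or more cells, called measured here, 61 (1.32%) were at least 10 points lower with AG-881 and 11 (0.239%) at least 10 points higher. HoxA holds 8 measured stretches, of which 1, at Hoxa4, was that much lower and 1, at Hoxa6, that much higher; with 8 stretches, 1 is the smallest count above 0. Their median difference was -0.03 points, against -0.14 over the 4607. Most measured stretches of the genome, 75.4%, were under 5% in both arms and could not fall by 10 points. Of the 230 with a mean level of 20% to 40%, where Hoxa4 and Hoxa6 lie, 13.9% were at least 10 points lower and 2.17% at least 10 points higher, with a median difference of -4.19 points. Counted over gene bodies that had 50 or more calls from 10 or more cells per arm, 5% of 12056 were at least 10 points lower and 2.25% at least 10 points higher. Of the 9 Hoxa genes measured so, 1 was lower (Hoxa4) and 1 higher (Hoxa5).

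**Figure D2:**
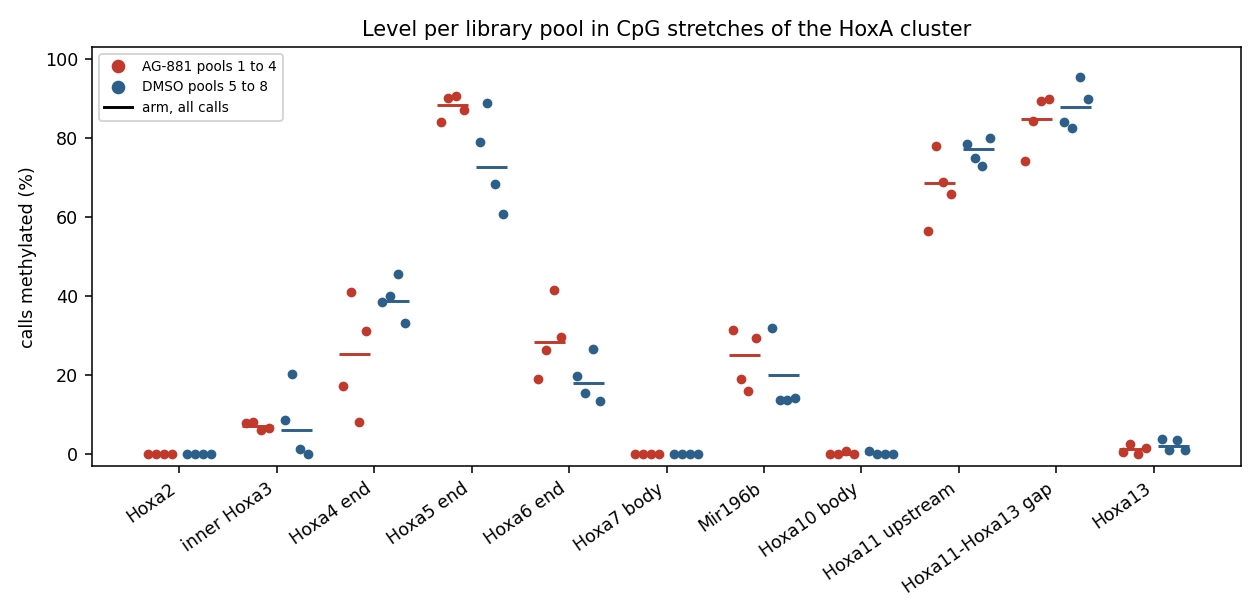
Percentage of calls methylated (y axis) in 11 stretches of the HoxA cluster (x axis), with 1 point per library pool (AG-881 pools 1 to 4 in red, DMSO pools 5 to 8 in blue) and a line for each arm over all its calls. In the Hoxa4 stretch the AG-881 pools run from 8.16% to 41.1% and the DMSO pools from 33.3% to 45.6%, and the pools of the arms overlap in every stretch shown.

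At the shared CpGs inside them, the mid-cluster genes Hoxa7, Hoxa9 and Hoxa10 formed a nearly unmethylated block. Hoxa7, a trunk gene (chr6:52215623-52218573), had 21 CpGs in a stretch with 0 of 261 AG-881 calls and 0 of 272 DMSO calls methylated (exact upper bounds 1.40% and 1.35%). Every pool was at 0% there. At Hoxa9, known for its part in blood stem cells and leukaemia, 27 CpGs had 0 of 294 and 3 of 274 calls methylated. All 3 methylated Hoxa9 calls came from pool 5. From the lower end of Hoxa7 to the upper end of Hoxa9, 0 of 592 AG-881 calls and 3 of 574 DMSO calls were methylated. The 5′ ends of Hoxa7 and Hoxa9 were barely covered, and their stretches of 10 or more CpGs lay 1179 and 1072 bp away. Within 1 kb of the 5′ end, Hoxa7 had 1 shared CpG (0 of 7 AG-881 and 0 of 8 DMSO calls methylated). Hoxa9 had 3 there (0 of 29 and 3 of 24).

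Hoxa10, which patterns the lumbar region and the uterus, had 85 CpGs, with 2 of 1002 AG-881 calls and 3 of 973 DMSO calls methylated (0.20% and 0.31%). Its larger stretch, chr6:52232058-52234649, has 68 CpGs with 1 of 767 and 2 of 765 calls methylated. Pool 3 of AG-881 stood at 0.87% there and pool 5 of DMSO at 0.93%, and every other pool was at 0%. The smaller, chr6:52239731-52240646, lies 208 bp inside the gene's annotated end and had 1 of 235 and 1 of 208 calls methylated. Pool 1 stood at 1.89% and pool 5 at 1.61%, with the others at 0%.

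Between Hoxa9 and Hoxa10 the block was broken at Mir196b, the gene of a microRNA that targets Hox transcripts. The stretch chr6:52228671-52230707 has 25 CpGs and stood at 25.1% of 227 AG-881 calls (19.6 to 31.3) and 20% of 225 DMSO calls (14.98 to 25.8), a difference of 5.11 points (-2.91 to 13.1). AG-881 pools gave 31.3%, 19.1%, 16.1% and 29.5%, and DMSO pools 32%, 13.8%, 13.8% and 14.3%. Pool 5 was the highest of all, and the pools overlapped. Averaging over cells turned the difference to -4.57 points, and leaving out pool 5 made it 11.1 points. Within 500 bp of the microRNA gene, 13 CpGs stood at 29.4% of 119 calls (21.4 to 38.5) and 16.8% of 125 calls (10.7 to 24.5). At those CpGs AG-881 pools 1 to 4 gave 42.1%, 20%, 15.8% and 36.4%, and DMSO pools 5 to 8 gave 33.3%, 0%, 19.4% and 0%. Here too the pools overlapped.

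Hoxa11, required for the forearm bones and the kidney, was methylated in both arms. Inside the gene, 6 CpGs stood at 93.8% of 48 AG-881 calls (82.8 to 98.7) and 100% of 34 DMSO calls (lower bound 89.7). Upstream, 15 CpGs in the antisense gene Hoxa11os, 268 bp from the 5′ end of Hoxa11, stood at 68.6% of 137 (60.1 to 76.3) and 77.3% of 141 (69.5 to 83.9), a difference of -8.69 points (-19.5 to 2.24). Averaged over cells it was 0.09 points, and with CpGs called in 10 or more cells -1.49 points. Towards Hoxa13, 3 further stretches held between 74.5% and 88.9% with AG-881 and between 84.8% and 92.9% with DMSO. From the start of Hoxa11 to the start of Hoxa13, 80.6% of 485 AG-881 calls and 85.4% of 383 DMSO calls were methylated, -4.76 points (-9.85 to 0.46). Between the genes alone the difference was -4.78 points, and with CpGs called in 10 or more cells it was 1.56 points.

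At Hoxa13, the gene of the digits and the urogenital tract, methylation was again near 0. The stretch chr6:52259805-52260919 has 42 CpGs, with 6 of 451 AG-881 calls and 10 of 477 DMSO calls methylated (1.33% and 2.10%), a difference of -0.77 points (-2.69 to 1.12). AG-881 pools gave 0.66%, 2.52%, 0% and 1.60%, and DMSO pools 3.75%, 1.05%, 3.60% and 1.05%. All methylated calls lay inside the gene. The 5 CpGs upstream of its end had 0 of 55 and 0 of 64. Beyond them, at Hottip, a long noncoding RNA gene next to Hoxa13, 2 CpGs had 4 of 16 and 6 of 15 calls methylated.

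Single CpGs were thinly covered. Of the 459, 196 had calls from 10 or more cells in AG-881 and in DMSO, and 107 of these had no methylated call in either arm. With AG-881, 44 were lower, 40 higher and 112 equal, and for none of the 196 did the interval of the difference leave out 0. Among all 459 it did so at 2, named after their values were seen: 52191515 in Hoxa4 (0 of 14 AG-881 cells against 3 of 8 DMSO cells) and 52228979 between Hoxa9 and Hoxa10 (0 of 8 against 3 of 5). Among the 196, the 3 largest decreases were at 52192043, upstream of Hoxa4 (2 of 17 AG-881 cells against 4 of 12 DMSO cells), at 52259805 in Hoxa13 (0 of 13 against 3 of 14) and at 52176631 in Hoxa3 (1 of 10 against 4 of 13). The 3 largest increases among them were at 52208812 and 52208932, both upstream of Hoxa6 (4 of 15 against 0 of 11, and 3 of 13 against 0 of 14), and at 52177549 in Hoxa3 (4 of 11 against 1 of 10).

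**Figure D3:**
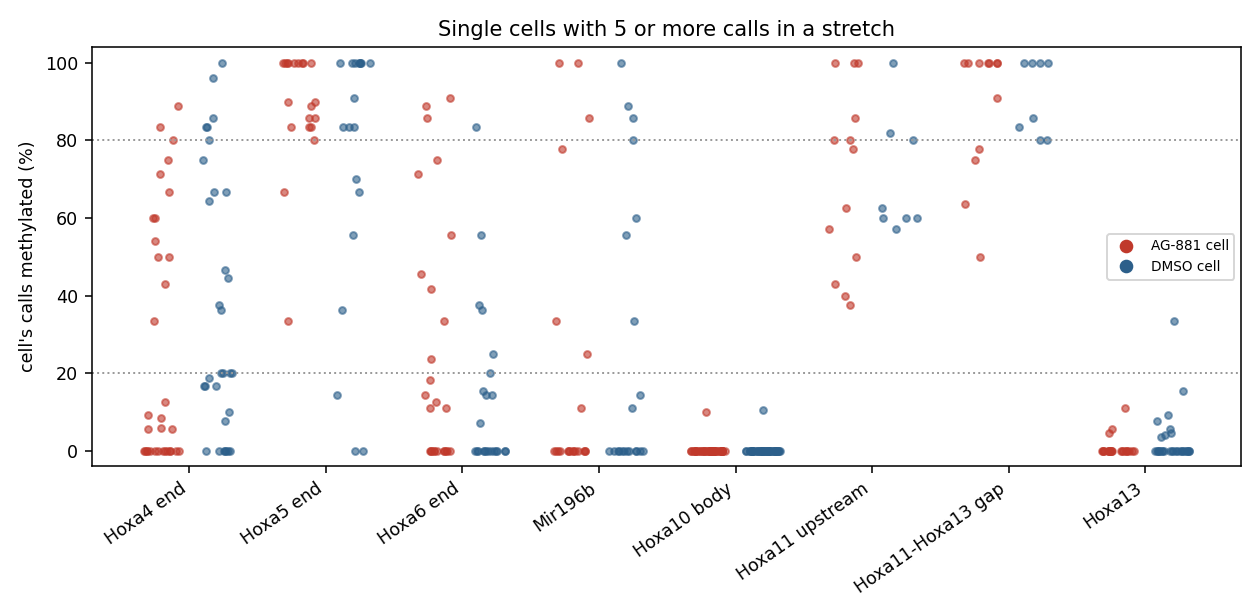
Percentage of a cell's calls that were methylated (y axis) in 8 stretches of the HoxA cluster (x axis), 1 point per cell with at least 5 calls there, AG-881 in red and DMSO in blue, spread sideways only for legibility; dotted lines mark 20% and 80%. Cells lie at both ends of the axis in the Hoxa4, Hoxa6 and Mir196b stretches whereas Hoxa10 cells reach at most 10.5% and Hoxa13 cells at most 33.3%.

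Cells differed in level within the intermediate stretches. Over the 16 stretches with at least 10 CpGs there were 685 pairs of a cell and a stretch with at least 5 calls. Of these, 66 lay strictly between 20% and 80% (9.64%, interval 7.53 to 12.1), 37 of 360 with AG-881 and 29 of 325 with DMSO. With limits of 10% and 90% the share was 19.1%. Most of these stretches were low on average; of those with intermediate levels, 18 of 64 cells lay between 20% and 80% at Hoxa4, 11 of 49 at Hoxa6, 6 of 42 at Mir196b and 12 of 21 upstream of Hoxa11. At Hoxa10's larger stretch all 47 AG-881 cells and all 49 DMSO cells were at 20% or below, the highest at 10% and 10.5%.

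Around the Hoxa4 5′ end, 20 of 33 AG-881 cells were at 20% or below, 10 between and 3 at 80% or above. The DMSO numbers were 17, 8 and 6 of 31. Means over cells were 26.1% ± 31.8 (SD, 33 cells) and 36.5% ± 33.6 (SD, 31 cells), so the spread between cells of 1 arm was about as wide as the mean itself. The share of cells at 20% or below was 60.6% (42.1 to 77.1) with AG-881 and 54.8% (36.03 to 72.7) with DMSO, and these intervals overlap.

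Around the Hoxa5 5′ end, 18 of 20 AG-881 cells were at 80% or above, 90% (68.3 to 98.8), against 12 of 19 DMSO cells, 63.2% (38.4 to 83.7). No AG-881 cell and 3 DMSO cells were at 20% or below. At Hoxa6, 16 of 26 AG-881 cells and 18 of 23 DMSO cells were at 20% or below, 61.5% (40.6 to 79.8) and 78.3% (56.3 to 92.5). For both genes the intervals over cells overlap between the arms. The arms' intervals over calls were apart at Hoxa5 (82.7 to 92.8 and 65.4 to 79.2) and overlapped at Hoxa6 (23.2 to 34.1 and 13.01 to 23.8). The intervals of the differences over calls, which did not include 0, are another measure and were not made over cells.

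The Mir196b stretch had cells at both ends in each arm, with 15 low, 3 between and 3 high of 21 AG-881 cells and 14, 3 and 4 of 21 DMSO cells. Upstream of Hoxa11 no cell was at 20% or below, and 7 of 13 AG-881 cells and 5 of 8 DMSO cells lay between 20% and 80%. Both regions are partly methylated on average, but the cells were divided at Mir196b and mostly intermediate upstream of Hoxa11.

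**Figure D4:**
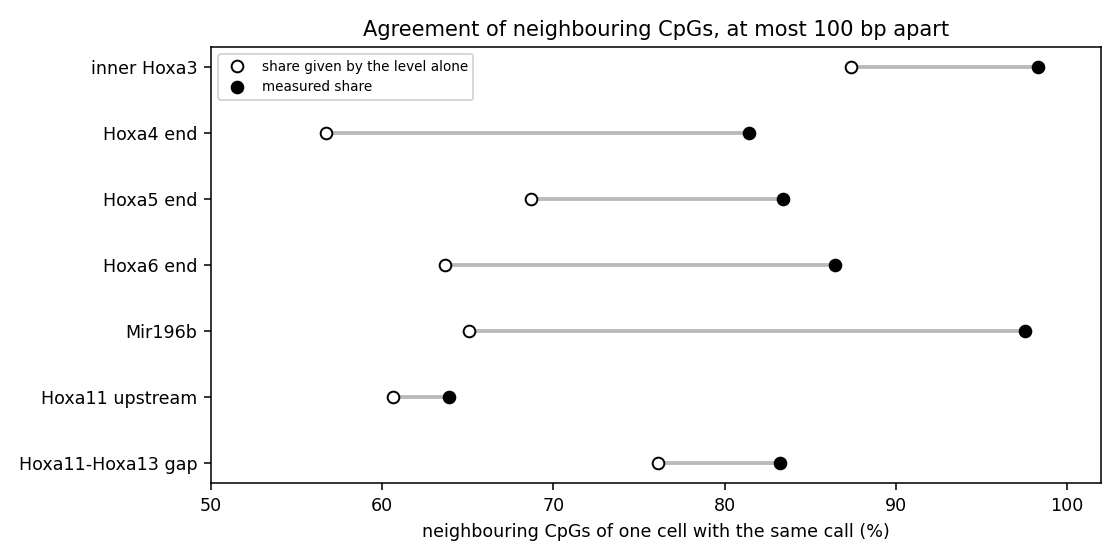
Percentage of pairs of neighbouring CpGs, at most 100 bp apart in the same cell, that had the same call (x axis, from 50%), in 7 stretches of the HoxA cluster (y axis), with both arms together. Filled points are measured shares and open points the share that the stretch's mean level gives if calls were independent; the gap is widest at Mir196b, 97.5% against 65.1%, and narrowest upstream of Hoxa11, 63.9% against 60.6%.

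The same contrast appeared in neighbouring CpGs, which come from the same calls and so are not separate evidence. In the Mir196b stretch, 97.5% of 284 pairs at most 100 bp apart in 1 cell had the same call, where the mean level alone gives 65.1%. The Hoxa4 stretch had 81.4% of 538 pairs against 56.7%, Hoxa6 86.5% of its pairs against 63.6%, and Hoxa5 83.4% of 271 against 68.7%. The second share gives every CpG of a stretch the same level. CpGs inside and upstream of Hoxa4 and of Hoxa6 had different levels, and the part of this in the agreement was not tested. Upstream of Hoxa11 the share was 63.9% of 169, close to the 60.6% that the level gives. By arm, these shares were 97.3% and 97.8% at Mir196b, 84.0% and 78.5% at Hoxa4, 85.8% and 87.4% at Hoxa6 and 61.9% and 65.9% upstream of Hoxa11, with AG-881 first. Neighbouring calls can come from 1 read, which the table does not show.

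Pairs at least 200 bp apart in the same stretch and cell still agreed in 86.2% of 658 at Mir196b (39 cells) and 77.2% of 991 at Hoxa4 (24 cells). At Hoxa6 they agreed in 58.02% of 655 (24 cells), below the 63.6% that the level gives; its CpGs inside and upstream of the gene have different levels, as given above. A cell contributes many such pairs, so these shares rest on few cells.

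Few cells had 5 calls at 2 of the intermediate stretches, so whether methylation at 1 Hoxa gene goes with that at another could only be counted. Of 23 cells covered at both Hoxa4 and Hoxa5, 8 were at 50% or above at both, 11 at Hoxa5 alone, 0 at Hoxa4 alone and 4 at neither. Of 27 covered at Hoxa4 and Hoxa6, 2 were at both, 6 at Hoxa4 alone, 4 at Hoxa6 alone and 15 at neither. Of 23 covered at Hoxa6 and Mir196b, 1 was at both, 3 at Hoxa6 alone, 4 at Mir196b alone and 15 at neither.

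Genes that work with the HoxA cluster were compared at the gene end with more listed CpGs, 1 kb either side. Of 9 genes for Hox cofactors, homeodomain proteins that bind DNA together with Hox proteins, 7 were measured with 50 calls and 10 cells per arm, and all 7 were under 5% in both arms, among them Meis1 (0.93% and 1.09%) and Pbx3 (0.21% and 0.65%). Of 18 genes for Polycomb and Trithorax proteins and Ctcf, which maintain or bound Hox expression, 15 were measured and all 15 were under 5%, among them Ezh2, the Polycomb methyltransferase (0% and 0.27%), and Kmt2a, its Trithorax counterpart at Hox genes (0.20% and 0%). No member of either list differed by 10 points. Over all 9037 measured gene ends, 6651 were under 5% in both arms and 388 (4.29%) differed by at least 10 points.

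Of 10 genes on either side of the cluster, not all of them adjacent to it, 9 were measured and 7 were under 5%. The exceptions were Evx1, a homeobox gene next to Hoxa13, at 37.1% of 170 AG-881 calls (29.8 to 44.8) and 40.3% of 124 DMSO calls (31.6 to 49.5), and Nfe2l3, a transcription factor gene, at 26.9% of 108 (18.8 to 36.2) and 17.05% of 88 (9.87 to 26.6). Below the cluster, on the side of Nfe2l3, the nearest gene of the list, Skap2, was at 0.26% and 0%. Of the 11 Hoxa genes themselves, 7 were measured so and 3 were under 5% in both arms (Hoxa2, Hoxa10 and Hoxa13). The end taken for Hoxa6 by this rule is its lower one, which holds the same CpGs as the 5′ end of Hoxa5.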

How the data were processed

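The deposited table holds, per the file's own values, a methylated fraction per cytosine and cell (0, 0.5, 1 or missing). Per the submitters' processing notes, positions are in mm10. Aligner and caller: not given in the sources used here. Without read counts the read depth is unknown, and depth is the number of CpGs called: 23895 to 190259 per AG-881 cell and 10438 to 165853 per DMSO cell. Arms and pools came from column names, which do not name wells. All 24 cell barcodes recur in more than 1 pool, and no 2 of the 141 columns covered the same CpGs.

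Adjacent positions were merged, ties (0.5) dropped, and only CpGs with calls from 5 or more AG-881 cells and 5 or more DMSO cells kept. For the printed upstream sequences every listed CpG was kept. Calls were pooled over cells. Intervals of differences combine both arms' Clopper-Pearson intervals. Since cells do not replicate an arm, no test was run. Gene spans came from RefSeq (GRCm38.p6). The stretch code was tested on simulated data. Python 3.11.15, numpy 2.4.6, pandas 2.3.3, scipy 1.17.1 and matplotlib 3.10.9 were used.

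The rule was to account for all Hoxa genes (1 item is not reported here), with pool values for the 4 largest decreases and 4 largest increases among measured stretches (all 8 here), the 3 single CpGs furthest each way, and upstream sequences with 50 calls per arm. The cluster, rules and gene lists were chosen with earlier results of these data known. Alternatives changed the minimum of cells, ties, strand merging, weighting, pools, gaps, limits and window sizes.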

Additional observations from a re-analysis of the deposited data

How the results depend on the processing

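The difference over the whole cluster stayed within its interval under all 15 alternatives, between -0.34 and 1.85 points, below 0 in 5 of them. The number of measured stretches at least 10 points apart, 2, became 1 with CpGs called in at least 1, 2 or 10 cells, with every CpG weighted equally, and with gaps of 300 bp or 1000 bp, and 0 at a limit of 20 points. Leaving out 1 pool gave 1 to 3, with 1 stretch left without pool 1, 3, 4, 6 or 8. The number of gene intervals at least 10 points apart, 2, became 0 with CpGs called in at least 10 cells and 1 without pool 1, and stayed between 1 and 2 over left-out pools. With CpGs called in at least 10 cells, neither Hoxa4 nor Hoxa5 had an interval value, so that count says nothing of their differences. The share of cells between the limits, 9.64%, was 19.1% with limits of 10% and 90%. Over its alternatives the Hoxa4 stretch ranged from -19.1 to -8.67 points, the Hoxa5 stretch from 11.1 to 18.8 and the Hoxa6 stretch from 7.38 to 13.4, so none of the 3 changed direction. The Hoxa5 stretch had no value with CpGs called in at least 10 cells. Of 239 values for single stretches 6 left the main interval, and none that had differed by 10 points changed sign. No paired analysis was possible because the columns carry no replicate numbers and no test was run. No pool holds both arms, so no setting tells treatment from pool.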
